A study of Mus musculus with 10 samples.

Results

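The B-cell identity and receptor signalling genes are a set of 32 genes that encode parts of the B-cell antigen receptor, the proteins that carry or dampen its signal, surface proteins of B cells and the transcription factors that set B-cell identity. They were chosen by name, and each gene was read from the probe set that the platform annotation gives to that gene alone, taking the probe set with the highest mean over 10 arrays where several existed. Of the 32 genes, 30 had such a probe set, among 18193 genes with one in all, and 28 passed the filter on dim probe sets, among 11472 genes tested. Lyn, a Src-family kinase of the receptor, and Cd38, a surface ectoenzyme, are not analysed here. Cr2 and Fcer2a were too dim to be tested and are given as signals only. RNA came from lymphoma cells of Emu-myc mice without Suv39h1, a histone H3 lysine 9 methyltransferase, in which the myc transgene is active in the B lineage. All cells carried a retroviral Bcl2, had been selected with puromycin for 48 h and grew on NIH 3T3 fibroblast feeder cells irradiated with 20 Gy. The ADR group had received Adriamycin (doxorubicin) at 0.05 µg/ml for 5 days, and the untreated group had not. Each group held 1 array from each of 5 lymphomas, lymphoma_5783, lymphoma_7890, lymphoma_9250, lymphoma_1032 and lymphoma_4936, so the lymphoma number pairs the 10 arrays. Suv39h1 itself had 0 probe sets named for it alone, and the deletion could not be checked. Ages and sexes of the mice are not given in the labels used here.

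In a B cell the membrane immunoglobulin binds antigen and the Cd79a and Cd79b chains beside it carry the signal motifs. Kinases of the Src family phosphorylate these motifs, Syk docks on them, and Syk, Btk and the adaptor Blnk together switch on the phospholipase Plcg2. Coreceptors such as Cd22 and Cd72 dampen the signal. Pax5 and Ebf1 commit progenitors to the B lineage, and Spib, Pou2af1, Pou2f2, Bach2 and the Ikaros family genes Ikzf1 and Ikzf3 act in mature B cells. Plasma cells lower much of this set when they begin to secrete antibody. The 7 B-cell markers Cd79a, Cd79b, Ms4a1, Pax5, Ebf1, Cd22 and Blk were all tested. In lymphoma_1032 the signal of Ms4a1, 4.79 with ADR and 5.09 untreated, lay near the median of the whole table, 4.43, while that of Cd79a was 7.98 with ADR and 8.80 untreated. Pax5 lay near that median in all 5 lymphomas. The 12 T-cell markers with a probe set averaged a log2 signal between 4.63 and 4.98 on the ADR arrays and between 4.62 and 4.98 on the untreated arrays.

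Signals are log2 values, so that a difference of 1 means that the signal doubled. The ADR array of lymphoma_1032 stood apart, with a median signal of 4.15 where the other 9 had 4.43 to 4.50. Results that rest on this array are given with and without it. Each lymphoma gave 1 culture per condition, so p-values between lymphomas measure only the spread left within these pairs of arrays. In bulk RNA, fewer cells of a type and less RNA per cell cannot be told apart.

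RefSeq promoter windows (250 bases before the start that the table gives, mouse build GRCm38.p6) were at hand for 25 of the 32 genes and were searched on both strands for 4 motifs. A gene was counted if any of its windows held a match. The box GAGGAA, which PU.1 and Spib bind, was in 8 of the 25 members and in 25.9% of all 27025 genes. The E-box CAGGTG, bound by the E2A proteins, was in 12 members and in 19.4% of all genes. The octamer ATGCAAAT, which Pou2f2 binds, was in 1 member, Blnk, and in 1.81% of all. The EBF motif, TCCC and GGGA with any 2 bases between them, was in 1 member, Cd22, and in 0.914% of all. The printed matches share no bases with one another, and a match is a run of letters, not a measured binding site. The 4 windows below are given 5' to 3' on the gene's strand, with the motif matches of either strand in capitals. Cd79a and Fcrla are shown because both were low in lymphoma_1032 and hold a GAGGAA and a CAGGTG match, and Cd22 and Blnk because they carry the rarer motifs.
Cd79a, chr7:24897247-24897496, plus strand: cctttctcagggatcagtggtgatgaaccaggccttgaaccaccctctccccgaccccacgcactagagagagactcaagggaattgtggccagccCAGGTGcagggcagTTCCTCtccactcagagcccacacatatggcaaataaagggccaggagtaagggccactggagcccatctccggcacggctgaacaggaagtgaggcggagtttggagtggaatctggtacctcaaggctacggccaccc
Fcrla, chr1:170927584-170927833, minus strand: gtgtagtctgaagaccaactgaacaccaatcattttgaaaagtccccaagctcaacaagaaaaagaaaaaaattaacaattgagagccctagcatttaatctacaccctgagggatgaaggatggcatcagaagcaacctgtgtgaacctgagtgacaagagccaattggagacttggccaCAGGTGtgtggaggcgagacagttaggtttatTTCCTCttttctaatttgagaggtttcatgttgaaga
Cd22, chr7:30879029-30879278, minus strand: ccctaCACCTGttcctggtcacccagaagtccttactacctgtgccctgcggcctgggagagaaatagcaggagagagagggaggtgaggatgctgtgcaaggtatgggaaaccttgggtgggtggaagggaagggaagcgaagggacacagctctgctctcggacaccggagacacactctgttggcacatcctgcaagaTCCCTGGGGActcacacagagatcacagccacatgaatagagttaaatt
Blnk, chr19:40994222-40994471, minus strand: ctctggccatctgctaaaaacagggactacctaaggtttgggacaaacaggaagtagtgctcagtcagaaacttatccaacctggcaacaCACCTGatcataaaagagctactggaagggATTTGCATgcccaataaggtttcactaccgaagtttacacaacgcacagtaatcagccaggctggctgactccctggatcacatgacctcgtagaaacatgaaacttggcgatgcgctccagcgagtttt
Among the 9 members with a window that were low in lymphoma_1032, 0 held the octamer or the EBF motif, 3 the GAGGAA box and 3 the E-box. Among the 13 other tested members with a window the counts were 1, 1, 5 and 7. Low in lymphoma_1032 here means below the mean of the other 4 lymphomas in limma, at an adjusted p under 0.05.

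The design asks first what ADR does to these genes within a lymphoma. No B-cell gene changed by the test: 0 of 28 tested members passed an adjusted p of 0.05 in limma, as did 0 of all 11472 genes (0.000%), and the smallest member value was 0.565. At an unadjusted p below 0.05 in limma there were 3 of 28 members, against 8.48% of all genes tested, and no other tool was run. Of these 2 were higher, where 3.97% of all genes were, and 1 was lower, where 4.52% were. The 3 were Cd24a with a mean change of -0.48 ± 0.31 (SD, n = 5), Fcmr with 0.63 ± 0.60 and Cd37 with 0.34 ± 0.29. The mean was higher in ADR for 16 members and lower for 12, while 44.8% of all genes were higher and 55.2% lower. The median change was 0.066 over the tested members and -0.024 over all genes tested, and 0 members moved by more than 1 on average.

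The change varied between lymphomas. Averaged over the 30 members, the change of ADR minus untreated was highest in lymphoma_9250, at 0.45, and lymphoma_7890, at 0.29. It was 0.024 in lymphoma_5783 and -0.28 in both lymphoma_1032 and lymphoma_4936, with a mean of 0.043 and an SD of 0.33. Over all genes tested the average was -0.046 in lymphoma_9250, 0.0039 in lymphoma_7890, 0.059 in lymphoma_5783, -0.21 in lymphoma_1032 and 0.068 in lymphoma_4936. In lymphoma_9250, 27 of 30 members had a higher signal with ADR, and in lymphoma_7890 24 did. Lymphoma_1032 and lymphoma_4936 each had 22 members lower with ADR. Among the tested members the share with a higher signal was 89.3% in lymphoma_9250, where it was 47% of all genes, 78.6% in lymphoma_7890 (48.4% of all genes) and 46.4% in lymphoma_5783 (53.7%). It was 28.6% in lymphoma_1032 (34.4%) and 25% in lymphoma_4936 (56.4%). These shares come from 1 pair of arrays each and carry no test. On the probe sets used, 2 tested members had a change of 1 sign in all 5 lymphomas. Cd24a was lower in 5 of 5, where 4.82% of all genes were, and Fcmr was higher in 5 of 5, where 4.67% were. The SD of the change over the lymphomas ranged from 0.061 for Plcg2 to 1.19 for Blk.

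**Figure D1:**
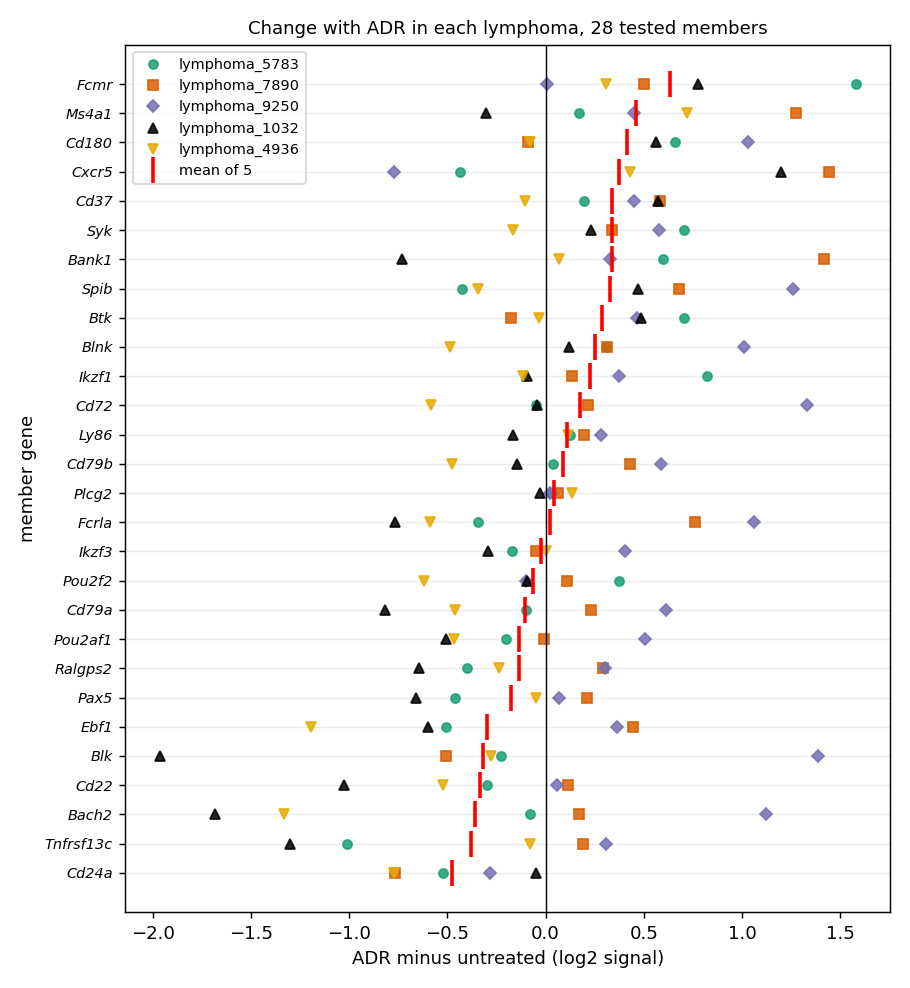
Change with ADR (ADR minus untreated, log2 signal, horizontal axis) of the 28 tested B-cell genes (vertical axis), with 1 symbol per lymphoma and a red bar at the mean of 5. Most genes straddle 0; only Cd24a has all 5 symbols below it and only Fcmr all 5 above it, and the mean of every gene lies between -0.48 and 0.63.

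The second comparison asks whether a gene's level differed between the lymphomas, with the treatment as the other term. The B-cell genes did so more often than not: 16 of 28 tested members passed limma's F test (57.1%), against 26.9% of all genes tested. By role these were 4 of 5 receptor chains and kinases, 1 of 4 adaptors and effectors, 6 of 7 surface regulators, 1 of 4 survival, homing and Toll-like receptor accessory genes, and 4 of 8 transcription factors. The 5 lymphoma means spanned more than 2 on the log2 scale in 8 members (28.6%), against 8.93% of all genes. The median span was 1.60 over the members and 0.75 over all genes tested. The lowest mean belonged to lymphoma_1032 in 16 members, where it was lowest in 37.1% of all genes, and to lymphoma_4936 in 9, where it was lowest in 24.4%. The highest belonged to lymphoma_5783 in 17 members, where it was highest in 16.5% of all genes. With a stricter filter (70th percentile of the table), which keeps only brighter genes, 17 of 26 members passed and 39.6% of all genes. Without lymphoma_1032, 9 members passed, 8 of them among the 16, and 10.3% of all genes. Without only its ADR array, an alternative chosen after seeing the data, 13 passed, 12 of them among the 16, and 17.6% of all genes. There the lone array of lymphoma_1032 is assumed to vary like the others.

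**Figure D2:**
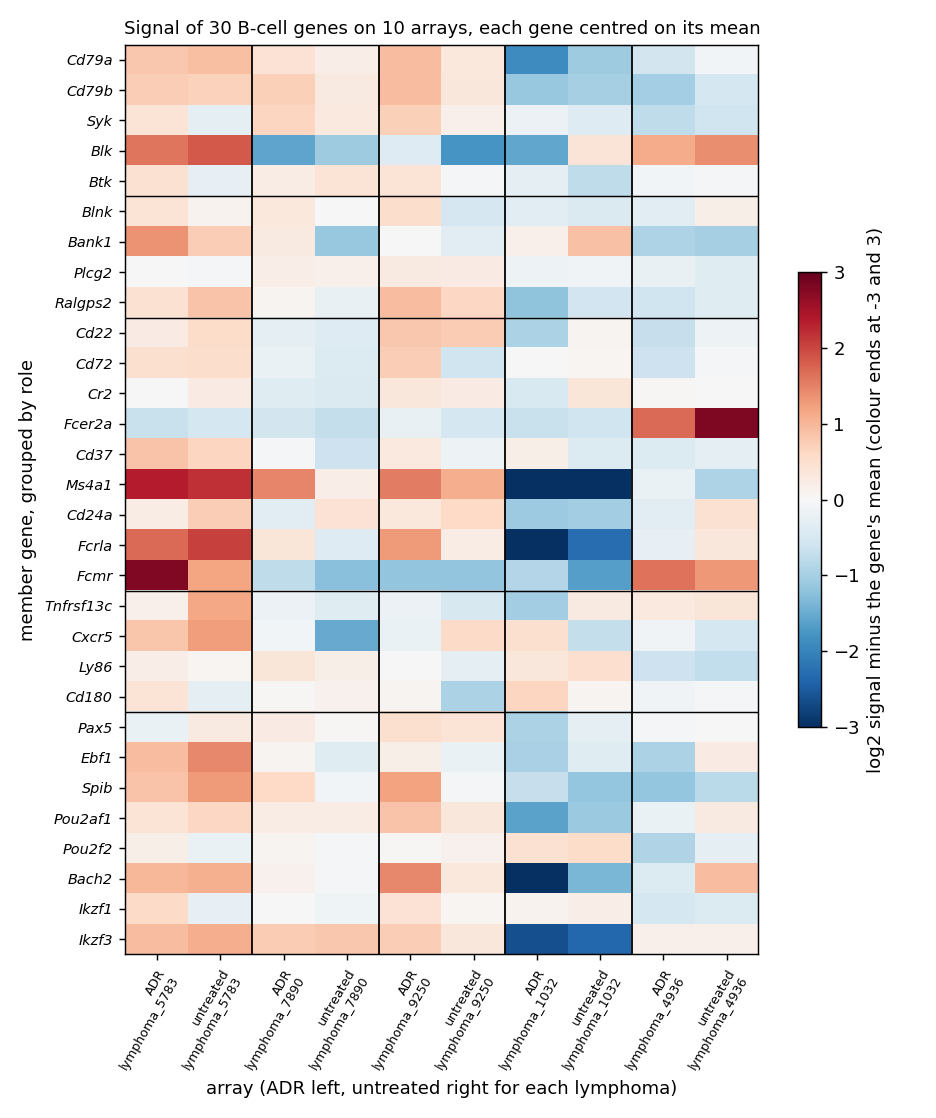
Log2 signal of the 30 B-cell genes with a probe set (vertical axis, grouped by role as in the text), each minus its own mean over 10 arrays, on the 10 arrays (horizontal axis, ADR left of untreated for each lymphoma); colours end at -3 and 3. The blue columns of lymphoma_1032 are deepest for Ms4a1, Fcrla, Bach2 and Ikzf3, and the red columns of lymphoma_5783 for Ms4a1, Fcmr, Fcrla and Blk.

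Among the receptor chains, both signalling chains were lowest in lymphoma_1032. Values of every array are given below in one order of the lymphomas: lymphoma_5783, lymphoma_7890, lymphoma_9250, lymphoma_1032, lymphoma_4936. Cd79a had signals of 10.67, 10.28, 10.78, 7.98 and 9.32 with ADR, and of 10.77, 10.05, 10.17, 8.80 and 9.78 untreated. Both arrays of lymphoma_1032 lay below all others, while the ADR and untreated groups overlapped, with a mean change of -0.11 ± 0.56 (SD, n = 5). Cd79a differed between lymphomas with an adjusted p of 0.0118, and this call was lost without lymphoma_1032. Cd79b had 11.78, 11.77, 11.99, 9.93 and 10.05 with ADR and 11.75, 11.33, 11.40, 10.07 and 10.52 untreated. Lymphoma_1032 and lymphoma_4936 were low here on both arrays and the other 3 lymphomas high, without overlap. Its adjusted p was 0.00857, and the call held in all 13 alternatives run, with adjusted p between 0.00202 and 0.0459. The mean change of Cd79b with ADR was 0.087 ± 0.43.

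Of the kinases, Syk, which docks on the phosphorylated receptor chains, had signals of 10.09, 10.33, 10.41, 9.52 and 8.93 with ADR and of 9.39, 9.99, 9.83, 9.29 and 9.10 untreated. It was higher with ADR in 4 of 5 lymphomas, and the groups overlapped. Its mean change of 0.34 ± 0.34 had an adjusted p of 0.577. Between lymphomas its adjusted p was 0.0321, with the lowest mean in lymphoma_4936, but the call was lost without any 1 of lymphoma_7890, lymphoma_9250, lymphoma_1032 and lymphoma_4936, or without the ADR array of lymphoma_1032. Blk, a Src-family kinase largely restricted to B cells, ranged from 4.70 to 7.89 with ADR and from 4.51 to 8.11 untreated. Its arrays were high in lymphoma_5783 and lymphoma_4936 and low in lymphoma_7890, and in lymphoma_1032 the signal was 4.71 with ADR and 6.67 untreated. Blk differed between lymphomas with an adjusted p of 0.0276, and the call was lost without lymphoma_5783, lymphoma_7890 or lymphoma_4936. Its change was 1.39 in lymphoma_9250 and -1.96 in lymphoma_1032, so that the mean of -0.32 was 0.094 without lymphoma_1032. Btk, the Tec-family kinase mutated in X-linked agammaglobulinaemia, ranged from 8.25 to 8.97 with ADR and from 7.76 to 8.93 untreated, and did not pass between lymphomas (adjusted p = 0.152).

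Of the adaptors and effectors, 1 of 4 passed between lymphomas. Blnk, the adaptor that joins Btk and Plcg2 to Syk, had 11.83, 11.74, 11.94, 11.11 and 11.11 with ADR and 11.52, 11.43, 10.93, 10.99 and 11.60 untreated. The order of the lymphomas was not the same with ADR and untreated, its adjusted p between lymphomas was 0.511, and its mean change with ADR was 0.25 ± 0.54. Its octamer window is the one printed above. Plcg2 spanned 10.16 to 10.65 with ADR and 10.02 to 10.63 untreated, a change of 0.044 ± 0.061 with ADR, and an adjusted p of 0.111 between lymphomas. Bank1, a scaffold that links receptor signalling to calcium release, ranged from 8.43 to 10.70 with ADR and from 8.21 to 10.24 untreated. Its adjusted p between lymphomas was 0.0519 with all arrays and was below 0.05 without lymphoma_1032 and in 7 other alternatives. Ralgps2, an exchange factor for Ral GTPases, was the 1 member of this group that passed, with an adjusted p of 0.0139. It was lowest in lymphoma_1032, with 6.44 with ADR and 7.09 untreated, and highest in lymphoma_9250, with 8.58 with ADR and 8.28 untreated, and it kept its call in all 13 alternatives.

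The surface regulators held 6 of the 16 calls between lymphomas. Ms4a1, which encodes CD20, had signals of 11.15, 10.27, 10.33, 4.79 and 8.59 with ADR, and of 10.98, 8.99, 9.88, 5.09 and 7.87 untreated, with lymphoma_1032 the fourth of each. Lymphoma_1032 lay far below all others on both arrays, and lymphoma_4936 lay below the other 3. The 5 means spanned 6.13, with an adjusted p of 0.000546, and the call held in all 13 alternatives. A further probe set of Ms4a1 gave the same picture, with a mean of 4.05 in lymphoma_1032 and correlation with the first of 0.97 over 10 arrays. With ADR the mean change was 0.46 ± 0.59, with a higher signal in 4 of 5 lymphomas and an adjusted p of 0.580.

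Fcrla, an intracellular Fc receptor-like protein of B cells, had 9.12, 7.78, 8.69, 4.36 and 7.17 with ADR and 9.46, 7.02, 7.63, 5.13 and 7.76 untreated. It was lowest in lymphoma_1032 and highest in lymphoma_5783 on either array, with an adjusted p of 0.00486 that was lost without lymphoma_1032, and its mean change with ADR was 0.025 ± 0.83. Fcmr, the Fc receptor for IgM, had 9.17, 5.64, 5.22, 5.53 and 8.02 with ADR and 7.59, 5.14, 5.21, 4.75 and 7.71 untreated. Here lymphoma_5783 and lymphoma_4936 were high and the other 3 low, without overlap, so that its order of lymphomas was not that of Ms4a1. Its adjusted p between lymphomas was 0.00217 and stayed between 0.000725 and 0.00980 in the 12 alternatives that tested it. With ADR, Fcmr was higher in every lymphoma, by 1.58 in lymphoma_5783 and by 0.0084 in lymphoma_9250, and the adjusted p was 0.565.

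Cd24a, a small glycosyl-phosphatidylinositol-anchored protein high on immature B cells, had 12.09, 11.54, 12.19, 10.79 and 11.54 with ADR and 12.61, 12.31, 12.47, 10.84 and 12.32 untreated. Each lymphoma was lower with ADR, and the change was smallest, -0.048, in lymphoma_1032, the lowest of the 5. The other 2 probe sets of Cd24a were also lowest in lymphoma_1032, but 1 of them had a higher signal with ADR there, by 0.14. Its adjusted p was 0.0121 between lymphomas, lost without lymphoma_1032, and 0.565 for the change with ADR. Cd37, a tetraspanin of mature B cells, had 10.64, 9.74, 10.08, 9.96 and 9.38 with ADR and 10.45, 9.16, 9.63, 9.39 and 9.49 untreated. It was higher with ADR in 4 of 5 lymphomas, with an adjusted p of 0.577, and highest in lymphoma_5783 on both arrays, with an adjusted p of 0.0314 between lymphomas. Its probe sets disagreed: the second averaged 6.17 in lymphoma_1032 and correlated at only 0.36 with the first over 10 arrays, and with the mean of the probe sets the call was lost, as it was without lymphoma_5783 or lymphoma_7890. Cd22, a sialic acid-binding inhibitory coreceptor whose window with the EBF motif is printed above, ranged from 8.41 to 10.17 with ADR and from 8.97 to 10.11 untreated. It differed between lymphomas with an adjusted p of 0.0412, lost without any 1 of lymphoma_5783, lymphoma_7890, lymphoma_9250 and lymphoma_4936 and with the mean of its probe sets. A second probe set of Cd22 averaged 6.64 in lymphoma_1032, its lowest mean, and 7.34 to 8.39 in the other 4. Cd72, another inhibitory coreceptor, ranged from 8.57 to 9.91 with ADR and from 8.58 to 9.71 untreated, with an adjusted p of 0.419.

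Cr2, the complement receptor CD21, had signals between 3.00 and 3.79 with ADR and between 3.02 and 3.81 untreated, below the filter throughout. Fcer2a, the low-affinity IgE receptor CD23, lay between 2.98 and 3.44 with ADR and between 2.95 and 3.13 untreated in 4 lymphomas. In lymphoma_4936 its signal was 5.36 with ADR and 6.47 untreated, but a second probe set averaged 3.39 in that lymphoma.

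**Figure D3:**
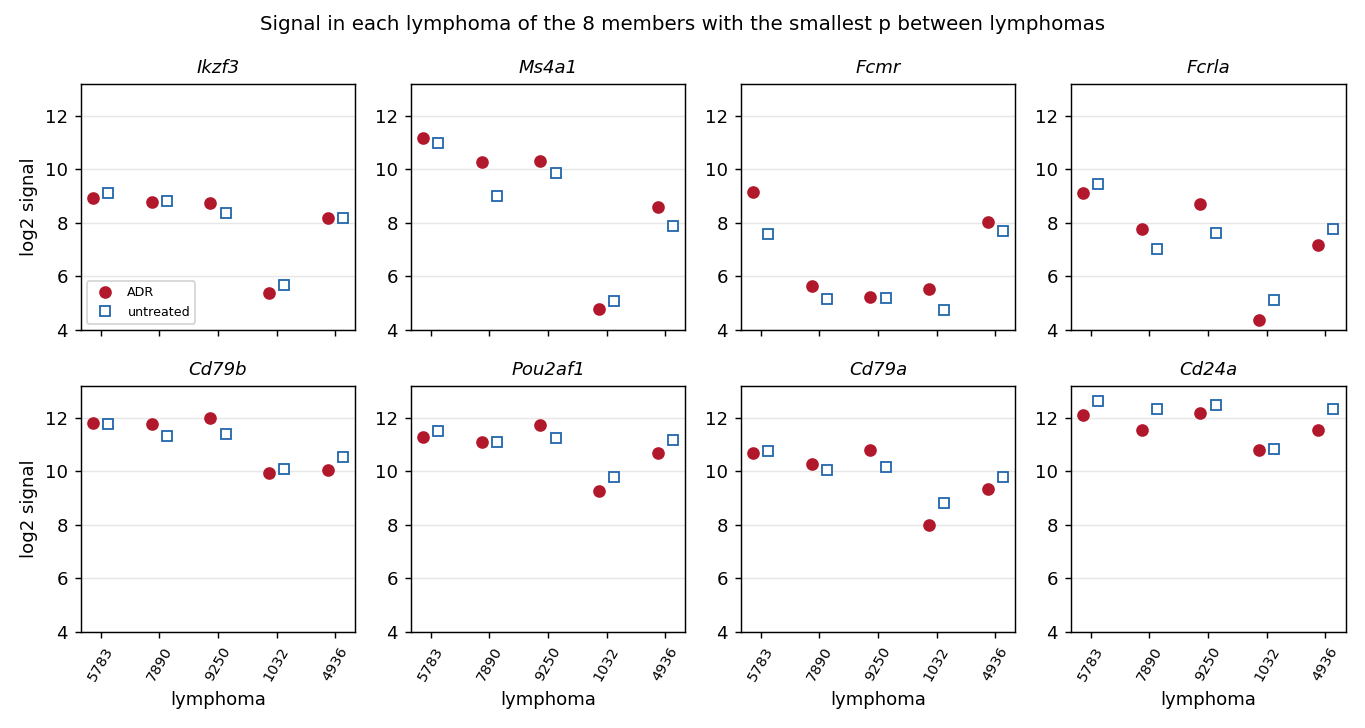
Log2 signal (vertical axis) of the 8 B-cell genes with the smallest p between lymphomas, in each lymphoma (horizontal axis), with filled red circles for ADR and open blue squares for untreated arrays. Both symbols of lymphoma_1032 are lowest in every panel but those of Fcmr and Cd79b; in the Fcmr panel lymphoma_5783 and lymphoma_4936 are high, and in the Cd79b panel lymphoma_4936 comes close to lymphoma_1032.

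The survival, homing and Toll-like receptor accessory genes also had 1 of 4 that passed. It was Ly86, which encodes MD-1, the partner of Cd180, with an adjusted p of 0.0183 that was lost without lymphoma_4936. Its signal was lowest in lymphoma_4936, with 9.94 with ADR and 9.82 untreated, and lay between 10.57 and 10.94 with ADR and between 10.29 and 11.06 untreated in the other 4 lymphomas. Cd180, a Toll-like receptor homologue of B cells, had 7.14, 6.78, 6.82, 7.39 and 6.64 with ADR and 6.49, 6.87, 5.79, 6.83 and 6.72 untreated. It was higher with ADR in 3 of 5 lymphomas and slightly lower in lymphoma_7890 and lymphoma_4936, with a mean change of 0.42 ± 0.49 and an adjusted p of 0.579. Tnfrsf13c, the receptor for the survival factor BAFF, ranged from 7.25 to 8.57 with ADR and from 7.79 to 9.44 untreated, and Cxcr5, the chemokine receptor that guides B cells into follicles, from 6.20 to 7.22 with ADR and from 4.87 to 7.66 untreated. Neither passed between lymphomas, with adjusted p of 0.218 for Tnfrsf13c and 0.150 for Cxcr5.

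Of the transcription factors, Ikzf3, which encodes Aiolos, had signals of 8.94, 8.77, 8.76, 5.37 and 8.17 with ADR and of 9.11, 8.82, 8.35, 5.66 and 8.17 untreated, lymphoma_1032 being the fourth of each. The 2 arrays of lymphoma_1032 lay more than 2 below every other array, while the other 4 lymphomas kept within 8.17 to 9.11 on both. Its adjusted p was 0.000546, and 0.0954 without lymphoma_1032. The change of Ikzf3 with ADR was -0.021 ± 0.26. A second probe set of Ikzf3 showed a smaller gap, with a mean of 5.52 in lymphoma_1032 and of 6.20 to 6.67 in the other 4. Pou2af1, the B-cell coactivator of the octamer factors, had 11.30, 11.10, 11.73, 9.27 and 10.70 with ADR and 11.50, 11.11, 11.23, 9.78 and 11.16 untreated. Lymphoma_1032 was again lowest on both arrays, and the adjusted p of 0.00955 was lost without it or without its ADR array.

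Bach2, a repressor that holds back plasma cell differentiation, ranged from 4.83 to 9.31 with ADR and from 6.51 to 8.95 untreated, with both lowest values in lymphoma_1032 and an adjusted p of 0.0310. Its change was -1.68 in lymphoma_1032 and -1.33 in lymphoma_4936, but 1.12 in lymphoma_9250. Spib, an Ets-family factor, ranged from 8.24 to 10.62 with ADR and from 8.23 to 10.68 untreated, with low values in lymphoma_1032 and lymphoma_4936 and an adjusted p of 0.0229. The calls of both genes were lost without lymphoma_1032 and without its ADR array, and that of Bach2 also with array weights. Pax5 lay near the filter on the probe set used, between 4.23 and 5.65 with ADR and between 4.89 and 5.59 untreated, with an adjusted p of 0.0832. Ebf1 ranged from 6.56 to 8.46 with ADR and from 7.16 to 8.97 untreated, with an adjusted p of 0.0529 and values below 0.05 in 7 of 13 alternatives. Pou2f2, which encodes Oct-2, had an adjusted p of 0.0763 and its lowest signal in lymphoma_4936 with ADR, 6.19. A further probe set of Pou2f2 was higher with ADR in every lymphoma, by 0.42 ± 0.13 (SD, n = 5). The probe set used changed by -0.066 on average and another one by -0.11. Ikzf1, which encodes Ikaros, ranged from 10.09 to 11.18 with ADR and from 10.20 to 10.80 untreated, with an adjusted p of 0.223. A second probe set of Ikzf1 averaged 6.77 in lymphoma_1032, its lowest value, and correlated at 0.073 with the first over 10 arrays.

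Set against the mean of the other 4 lymphomas, lymphoma_1032 had the most members that passed. In it, 13 of 28 members were lower (46.4%), where 16.5% of all genes tested were, and 2 were higher, where 12.9% were. The largest differences were those of Ms4a1 at -4.82 ± 0.27 (SE; adjusted p = 0.000137), Fcrla at -3.34 ± 0.36, Ikzf3 at -3.12 ± 0.16 and Bach2 at -2.75 ± 0.49. Cd79a, Pou2af1, Fcmr, Cd79b, Cd24a, Spib and Ralgps2 followed, with differences between -1.83 and -1.11. Fcmr, at a mean of 5.14 in lymphoma_1032, was also low in lymphoma_7890, at 5.39, and lymphoma_9250, at 5.21. Spib, at 8.47 in lymphoma_1032, was as low in lymphoma_4936, at 8.42. Pax5 at -0.76 and Btk at -0.64 also passed. Ly86 at 0.52 and Pou2f2 at 0.64 were the 2 that were higher. The median difference over the tested members was -0.69 and that over all genes -0.10. Without the ADR array of lymphoma_1032, 7 of the 13 remained lower, where 5.81% of all genes were. The calls of Cd79b, Btk, Ralgps2, Pax5, Spib and Bach2 were lost there, and so was that of Pou2f2, while Ly86 was still higher. In other alternatives the call of Btk was lost with no filter, centred arrays, array weights or without lymphoma_7890 or lymphoma_9250, that of Pax5 with a stricter filter, means over probe sets, array weights or without lymphoma_9250, and that of Spib with array weights or without lymphoma_5783 or lymphoma_7890. Those of Ly86 and Pou2f2 were both lost with array weights and without lymphoma_9250 or lymphoma_4936. With adjustment over the 5 contrasts together, 11 members passed in lymphoma_1032, and 2472 of 11472 genes. There limma's adjusted p was 0.0576 for Ly86, 0.0600 for Spib, 0.0815 for Pou2f2 and 0.0844 for Btk. Fcmr was not tested under the stricter filter, with which 11 of 26 members were lower, where 23.1% of all genes were. With each array centred on its median, 12 of the 13 were still lower, where 10.8% of all genes were lower and 18.3% higher.

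**Figure D4:**
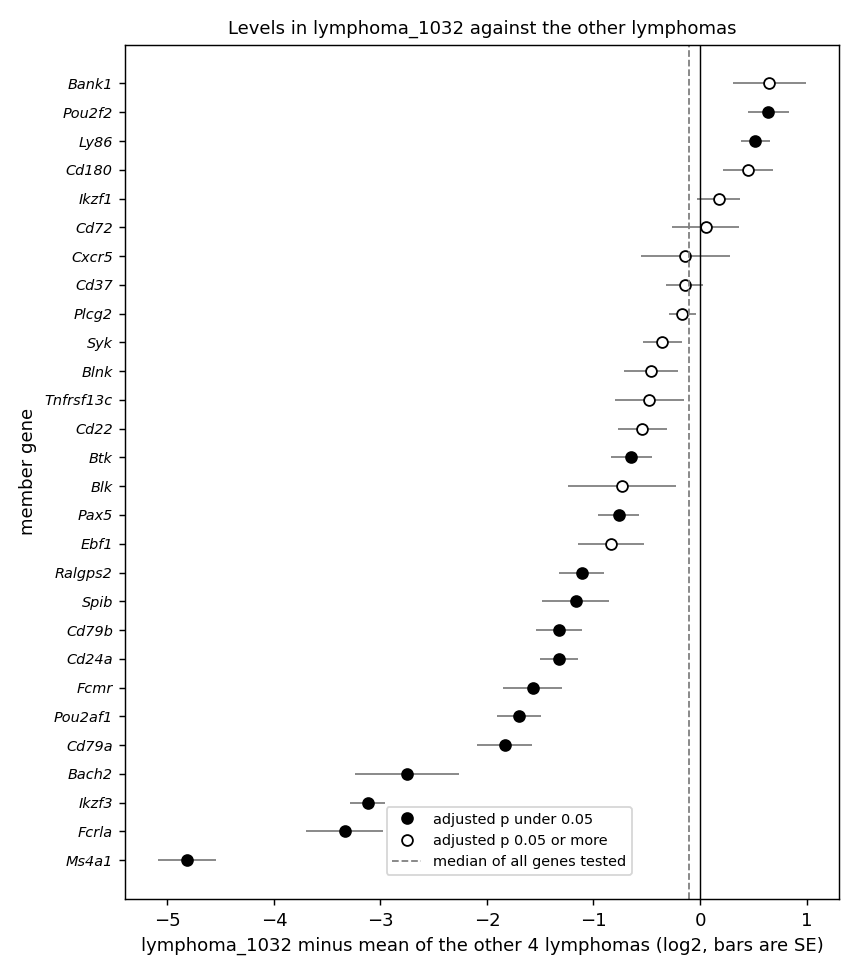
Level in lymphoma_1032 minus the mean of the other 4 lymphomas (horizontal axis, log2 signal, bars are SE) of the 28 tested B-cell genes (vertical axis), filled where the adjusted p is under 0.05; the dashed line is the median of all genes tested, -0.10. The values run from -4.82 for Ms4a1 to 0.65 for Bank1, and 13 of the 15 filled points lie left of 0.

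The other 4 lymphomas stood apart for fewer members. Lymphoma_5783 had 5 members higher than the mean of the others, where 1.65% of all genes were, and 0 lower, where 0.549% were. These were Ms4a1 at 2.84 ± 0.27 (SE), Fcmr at 2.48 ± 0.27, Fcrla at 2.34 ± 0.36, Ikzf3 at 1.26 ± 0.16 and Cd37 at 0.94 ± 0.17, with adjusted p between 0.00861 and 0.0410. As each mean of the others includes lymphoma_1032, these contrasts are not independent of the one above. In lymphoma_5783, 3 members passed without lymphoma_7890, where 77 of 11472 genes did. Without lymphoma_1032, 6 members passed in it, where 788 of 11472 genes did. Lymphoma_4936 had Fcmr higher, by 1.83 ± 0.27, where 5.68% of all genes were higher. It had 5 members lower, where 7.4% of all genes were: Spib at -1.23, Cd79b at -0.97, Ly86 at -0.86, Syk at -0.84 and Pou2f2 at -0.74. Between 3 members, without lymphoma_7890 (944 of 11472 genes), and 7, without lymphoma_1032 (1172 of 11472 genes), passed there. Lymphoma_9250 had Ms4a1 at 1.64, Cd22 at 0.98 and Ralgps2 at 0.97 higher, where 2% of all genes were, and Fcmr at -1.48 lower, where 5.20% were. Only 1 member passed there when lymphoma_1032 or lymphoma_4936 was left out, where 284 and 928 of 11472 genes did. In lymphoma_7890, Ikzf3 at 0.98 was the 1 member that was higher, where 1.68% of all genes were, and 0 members were lower, where 1.56% were. Without lymphoma_9250, 4 members passed in it, where 566 of 11472 genes did.

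Further genes of the same pathway were read from lists of other receptor pathway genes, inhibitors, transcription factors, surface genes and immunoglobulin genes. With ADR, 0 members of each of the 5 lists passed, and medians of the change were 0.043, 0.025, -0.15, 0.015 and 0.10. At an unadjusted p below 0.05, 3 of 30 other receptor pathway genes were higher and 0 lower, and 0 of 19 inhibitors were higher and 2 lower, where 3.97% of all genes were higher and 4.52% lower. Of 26 other B-cell transcription factors 1 was higher and 4 lower, and 19 of 26 were lower on average, where 55.2% of all genes were. Between lymphomas, 10 of 30, 9 of 19, 15 of 26, 16 of 24 and 3 of 5 passed in the 5 lists, where 26.9% of all genes did. Without lymphoma_1032 5, 4, 6, 7 and 1 passed, where 10.3% of all genes did.

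In lymphoma_1032 these lists did not move one way. The shares of all genes tested were 12.9% higher and 16.5% lower there. Among the 30 receptor pathway genes 10 were higher and 2 lower. The 3 with the smallest p were Pik3cg, a phosphoinositide 3-kinase subunit, at 2.15 ± 0.19 (SE), Rac2, a GTPase of blood cells, at 1.31 ± 0.15 and Cd81, a tetraspanin, at 1.18 ± 0.15. Of the 19 inhibitors 5 were higher and 2 lower. Cd5, a surface inhibitor of antigen receptor signalling found on T cells and B-1 cells, had a signal of 10.71 with ADR and 11.26 untreated in lymphoma_1032. It had 8.39 with ADR and 8.20 untreated in lymphoma_5783, and between 3.75 and 5.13 with ADR and between 3.69 and 4.62 untreated in the other 3. The difference for lymphoma_1032 was 5.73 ± 0.25, with an adjusted p of 5.6e-05. Of the 7 T-cell markers tested, 1 was higher in lymphoma_1032, Cd28, a costimulatory receptor, at 2.49 ± 0.56, and 1 was lower, Cd2, an adhesion receptor, at -2.42 ± 0.37. Cd3e, a defining T-cell gene, had 5.22 with ADR and 5.54 untreated in lymphoma_1032, against 4.88 to 5.42 with ADR and 5.08 to 5.38 untreated in the other 4. Dok2, a docking protein that dampens tyrosine kinase signals, was higher by 2.42 and Siglecg, an inhibitory lectin of B cells, lower by 2.11 on the log2 scale.

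Among the 26 other B-cell transcription factors 2 were higher in lymphoma_1032 and 8 lower, so that this list was mostly low there. They included Id2, an inhibitor of E proteins, at 2.22, and Klf2 at -2.49 and Ets1 at -2.10. Of the 24 surface genes 8 were higher and 5 lower, with S1pr1 at -2.99 and Ccr7 at -2.88, both receptors for exit from or entry into lymph nodes, and Cd53, a tetraspanin, at 1.14. Ighm, the constant region of IgM, was lower in lymphoma_1032 by 1.53 on the log2 scale and Jchain, the joining chain of secreted IgM and IgA, was higher by 1.67, with adjusted p of 0.0162 and 0.0499. Without the ADR array of lymphoma_1032, 6 receptor pathway genes, 3 inhibitors, 0 transcription factors, 4 surface genes and 0 immunoglobulin genes were higher there, and 0, 1, 3, 4 and 0 lower, where 7.21% of all genes were higher and 5.81% lower. The genes named here kept their calls in that fit except Cd28, Id2, Ighm and Jchain, with adjusted p of 0.0556, 0.0654, 0.152 and 0.337.

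Markers of other cell types also differed between the lymphomas. The 20 macrophage markers with a probe set averaged 8.10, 8.80, 5.84, 8.47 and 5.96 with ADR, in the same order of lymphomas, and 7.74, 8.69, 5.85, 7.85 and 5.85 untreated. The 30 B-cell genes averaged 9.10, 8.52, 8.87, 7.55 and 8.19 with ADR and 9.08, 8.23, 8.41, 7.82 and 8.46 untreated. On both arrays the macrophage average was highest in lymphoma_7890, and the B-cell average was highest in lymphoma_5783 and lowest in lymphoma_1032. Csf1r, the receptor that defines macrophages, averaged 10.29 in lymphoma_1032, against 11.55 in lymphoma_7890, 8.86 in lymphoma_5783, 5.74 in lymphoma_9250 and 5.79 in lymphoma_4936. Of the 16 macrophage markers tested, 11 were higher in lymphoma_1032 than in the mean of the other 4 lymphomas and 1 was lower. Fewer were called higher without the ADR array of lymphoma_1032. The differences then ran from -1.78 for Apoe to 3.72 for Fcgr1. The shares of all genes tested were 12.9% higher and 16.5% lower. With ADR the mean was higher in all 16 of the macrophage markers tested, 7 of them at an unadjusted p below 0.05, and 0 passed the adjusted threshold. Their average over the 20 markers changed by 0.36, 0.10, -0.010, 0.61 and 0.11, and that of the 19 fibroblast markers by 0.46, -0.00013, -0.055, 0.46 and 0.12. Macrophages express several members too, among them Syk, Btk, Plcg2, Ly86, Cd37, Cd180 and Pou2f2. The 9 plasma cell markers averaged 8.51, 8.08, 7.62, 8.54 and 8.71 with ADR and 8.32, 7.41, 7.74, 8.69 and 8.31 untreated. Of the 8 that were tested, 4 were higher in lymphoma_1032 than in the mean of the other 4 lymphomas and 1 was lower. Most of these calls were lost without the ADR array of lymphoma_1032. The differences of the 8 then ran from -1.67 for Irf4 to 3.79 for Prdm1. Of all genes tested 12.9% were higher there and 16.5% lower. The 10 neutrophil markers were highest in lymphoma_1032, at 6.77 with ADR and 5.83 untreated, against 4.12 to 4.77 with ADR and 4.13 to 4.60 untreated in the other 4. The part of these cells in the levels of the B-cell genes was not tested.

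**Figure D5:**
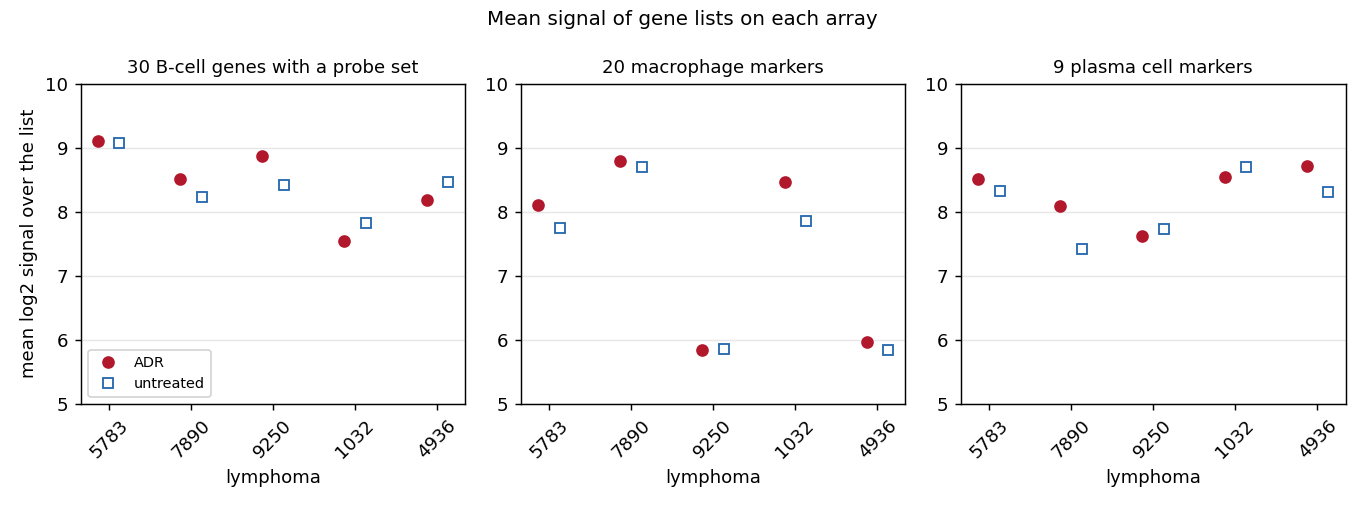
Mean log2 signal (vertical axis) over the 30 B-cell genes, 20 macrophage markers and 9 plasma cell markers in each lymphoma (horizontal axis), with filled red circles for ADR and open blue squares for untreated arrays. The B-cell average is lowest in lymphoma_1032, at 7.55 with ADR and 7.82 untreated, while the macrophage average is high in lymphoma_5783, lymphoma_7890 and lymphoma_1032 and low in the other 2.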

How the data were processed

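Total RNA of 10 cultures was measured on Affymetrix mouse arrays of 45101 probe sets. The deposited values, RMA signals per the submitters' processing notes, which also name Partek, were taken as log2 because they ran from 0.550 to 15.6. Software versions, RMA settings and the base of the logarithm were not given in the sources used here. No further normalization was applied. The 32 genes and the lists set beside them were chosen with earlier results of these data known. Of the probe sets, 64 were controls, 34945 carried a single gene symbol in the annotation of the platform, 932 several and 9160 none. Where a gene had several probe sets, the one with the highest 10-array mean stood for it, and a gene was tested if that lay above the table's median, 4.43, on at least 5 arrays. The linear models had terms for lymphoma and treatment and were run in limma 3.58.1 (lmFit and eBayes; R 4.3.3). Levels between lymphomas were tested with limma's moderated F test, and each lymphoma was contrasted with the mean of the other 4. P-values are two-sided, Benjamini-Hochberg adjusted over 11472 genes in each comparison, with a threshold of 0.05.

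The lymphoma number pairs arrays of the same lymphoma, per the labels. Deviations from the group means correlated between 0.51 and 0.79 within the 5 pairs, and 10 of 10 arrays correlated best with their own partner. No slide or scan batch is given in the sources used here. The number of arrays, 5 in each group, limits the precision of every value. The fits were tested on simulated data. Genes were named by role, with every array's value for the 8 members with the smallest p between lymphomas, the 5 with the smallest p for ADR and 3 with high signals; genes of the other lists were named from the 3 smallest p in each. Cd2, Cd3e, Cd28, Csf1r and the further probe sets given in the text were named after their values were seen. The alternatives were no replicate block, no filter, a stricter filter (70th percentile of the table), a gene's mean over its probe sets, array weights, a repeated quantile normalization, arrays centred on their medians, a robust prior with a trend, adjustment over the 5 contrasts together, leaving out each lymphoma and, chosen after seeing the data, leaving out the ADR array of lymphoma_1032. Promoter windows are RefSeq sequences of GRCm38.p6. Tables and plots were made with Python 3.11.15, pandas 2.3.3 and matplotlib 3.10.9.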

Additional observations from a re-analysis of the deposited data

Results flagged for a closer look

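In 6 groups of 5 arrays, 1 lymphoma lay far from the other 4. The gap to its nearest neighbour was more than 0.71 of the group's whole range, Dixon's critical value for 5 samples. Ikzf3 was lowest in lymphoma_1032 in both groups, with 5.37 with ADR, where the next value was 8.17 and the highest 8.94, and 5.66 untreated, where they were 8.17 and 9.11. Pou2af1 was lowest in lymphoma_1032 untreated, with 9.78, where the next value was 11.11 and the highest 11.50. Cd24a was lowest in lymphoma_1032 untreated, with 10.84, where the next value was 12.31 and the highest 12.61. Fcer2a was highest in lymphoma_4936 in both groups, with 5.36 with ADR, where the next value was 3.44, and 6.47 untreated, where the next was 3.13. Its second probe set did not show this. Chance marks about 1 in 20 such groups. Over all genes tested 7.90% of the ADR groups and 6.85% of the untreated groups were marked, against 2 of 30 ADR groups and 4 of 30 untreated groups of the B-cell genes. The changes of ADR minus untreated gave 0 of 30, where 7.04% of all genes did. Cr2 and Fcer2a are among the 30 but were not among the genes tested. Fcer2a gave 1 of the marked groups with ADR and 1 of those untreated.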

How the results depend on the processing

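The comparison of ADR with untreated cells gave 0 called genes and 0 called members in every alternative, also in the unpaired fit with no replicate block (0 genes, 0 members, mean change over members 0.043). The mean change over members was -0.060 to 0.12 when 1 lymphoma was left out, and its sign turned without lymphoma_7890 (-0.019) and without lymphoma_9250 (-0.060). Changes of single members, of which 0 were called, turned sign as follows. With each gene's mean over its probe sets the values were 0.083 for Pou2f2, -0.020 for Ikzf1 and 0.10 for Ikzf3; with a repeated quantile normalization 0.056 for Ikzf3; with centred arrays 0.014 for Pou2f2 and 0.060 for Ikzf3; and with array weights 0.065 for Cd79a, 0.0027 for Ralgps2 and 0.024 for Ikzf3. Without the ADR array of lymphoma_1032 they were 0.071 for Cd79a, 0.094 for Blk and 0.047 for Ikzf3. Leaving out 1 lymphoma at a time gave -0.29 to 0.071 for Cd79a and -0.74 to 0.094 for Blk, both turned without lymphoma_1032, and -0.13 to 0.047 for Ikzf3, turned without lymphoma_5783 or lymphoma_1032. It gave -0.038 to 0.23 for Cd79b and -0.11 to 0.37 for Cd72, both turned without lymphoma_9250, -0.23 to 0.22 for Fcrla, turned without lymphoma_7890 or lymphoma_9250, and -0.18 to 0.072 for Pou2f2, turned without lymphoma_4936.

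Between lymphomas, leaving out 1 lymphoma gave 1179 to 2796 genes and 9 to 15 members, lowest without lymphoma_1032. Cd79b, Ms4a1, Ralgps2 and Fcmr kept their calls in every alternative that tested them. For lymphoma_1032 the leave-one-out range was 2483 to 3508 genes and 11 to 15 members, for lymphoma_4936 944 to 1498 genes and 3 to 7 members, for lymphoma_5783 77 to 788 genes and 3 to 6 members, for lymphoma_7890 216 to 566 genes and 1 to 4 members, and for lymphoma_9250 284 to 928 genes and 1 to 5 members. Without the ADR array of lymphoma_1032, 2017 genes differed between lymphomas and 1493 genes and 8 members in lymphoma_1032. Array weights gave 967 genes and 5 members in lymphoma_7890, 1360 genes and 7 members in lymphoma_9250, 2075 genes in lymphoma_1032, and 969 genes and 3 members in lymphoma_4936. The trended and robust prior gave 411 genes in lymphoma_5783, 511 genes and 2 members in lymphoma_7890, and 1159 genes and 8 members in lymphoma_9250. Adjustment over the 5 contrasts together gave 593 genes and 10 members in lymphoma_5783 and 631 genes and 2 members in lymphoma_7890. In lymphoma_7890, 0 members and 340 of 10470 genes passed with means over probe sets. With a repeated quantile normalization 2 members and 480 of 11408 genes passed in it, and with centred arrays 2 members and 441 of 11408 genes. The cause was not tested, except that settings without arrays have fewer samples. Dim probe sets limit Cr2, Fcer2a and Pax5, whose signals lay near or below the table's median.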
